A study of Homo sapiens with 40 samples.

Results

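The genes described here are 8 members of the interleukin-6 (IL-6) cytokine family, taken by name from a table of 15788 genes. They comprise the ligand genes IL6, IL11, LIF and CLCF1 and the receptor genes IL6R, IL6ST, LIFR and OSMR. All 8 had a mean of at least 1 TPM (transcript abundance scaled for transcript length and library size) and so were among the 12591 genes tested.

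Cytokines of this family signal through gp130, the membrane protein encoded by IL6ST. IL-6 and IL-11 first bind a private receptor chain, encoded by IL6R and IL11RA, and the complex then recruits gp130. LIF brings gp130 together with the LIF receptor (LIFR), CLCF1 acts through gp130, LIFR and the CNTF receptor chain, and OSMR pairs with gp130 to bind oncostatin M. The assembled receptors activate JAK kinases and the transcription factor STAT3, which in turn induces SOCS3, an inhibitor that binds gp130 and limits signalling. In the airway epithelium IL-6 is known as an inflammatory cytokine, and IL6 and IL11 are both known to respond to cyclic AMP (cAMP).

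RNA was measured in BEAS-2B, a single immortalised human bronchial epithelial cell line, so that all values describe 1 line. Confluent cultures in serum-free medium received their treatment for 2 h, and 40 libraries fall into 10 groups of 4. The groups were vehicle, the EP4 prostanoid receptor agonist ONO-AE1-329 (ONO) at 0.1 nM, 1 nM or 1 µM, the β2-adrenoceptor agonist vilanterol at 100 nM, the PDE4 inhibitor roflumilast N-oxide (RNO) at 1 µM, and each of these 4 agonist treatments together with 1 µM RNO. Both receptors couple to the formation of cAMP, which PDE4 enzymes break down. Whether replicates came from separate cultures is not stated, and a p-value here reflects variation among these libraries alone, possibly technical.

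Library totals lay between 956888 and 1091466 TPM, and read depth is unknown because no counts were analysed here. The vehicle library with replicate number 3 stood apart: it had the highest total, and its genes deviated from their group means with an SD of 0.209 on the log2 scale, against 0.169 for the next library. It also had the lowest IL6ST, LIFR and OSMR of all 40 libraries. Of 7 epithelial marker genes 4 were in the table, with KRT8 and KRT18 carrying their sum, while the epithelial adhesion genes were nearly absent, with EPCAM at or below 0.611 TPM and CDH1 at or below 1.06 TPM in all libraries. The 4 mesenchymal markers in the table (of 6 listed) summed to between 1773 and 1978 TPM, the 2 leukocyte markers (of 6) to between 10.99 and 15.9 TPM and the 3 endothelial markers (of 4) to between 0.403 and 0.800 TPM. The summed epithelial markers lay between 696.4 and 839.4 TPM in vehicle, between 536.0 and 688.6 TPM with 1 µM ONO and between 539.0 and 695.2 TPM with vilanterol, and their part in the results was not tested.

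In the comparisons with vehicle a gene was called at an adjusted p under 0.05 in limma, with Benjamini-Hochberg adjustment over all 12591 genes. Changes are log2 fold changes on the log2(TPM + 1) scale with their standard error (SE), and folds are ratios of mean TPM. Libraries with the same replicate number deviated together, so the adjusted p of a limma fit that also has the replicate number as a block (blocked adjusted p) is given where it alters a call of a member in the 20 comparisons (of 25) where every same-numbered pair did so. The comparisons with vehicle share the same 4 vehicle libraries and are not independent of each other.

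IL6 was the member that changed most. In vehicle its values in replicates 1 to 4 were 4.56, 4.17, 4.86 and 4.33 TPM. With 1 µM ONO they were 24.6, 16.2, 9.43 and 15.9 TPM, and with vilanterol 87.8, 58.0, 43.4 and 52.9 TPM. The lowest library of either agonist lay above the highest vehicle library, and the lowest vilanterol library above the highest 1 µM ONO library. In a bulk sample a change in the number of cells that express a gene and a change in the RNA of each cell cannot be told apart.

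The mean of IL6 rose from 4.48 ± 0.301 TPM in vehicle to 16.5 ± 6.21 TPM with 1 µM ONO (SD, n = 4), 3.69-fold (log2 fold change 1.61, SE 0.21, adjusted p = 9.52e-07). Vilanterol raised it 13.5-fold to 60.5 ± 19.2 TPM (3.44, SE 0.21, adjusted p = 5.72e-15). Within replicate numbers the vilanterol to vehicle ratio of IL6 was 19.2, 13.9, 8.92 and 12.2, so all 4 pairs showed the increase. At the lower ONO concentrations IL6 was 4.62 ± 0.804 TPM (0.1 nM) and 6.37 ± 0.743 TPM (1 nM). Neither was called against vehicle in limma (adjusted p = 0.987 and 0.383). With 1 nM ONO the lowest library (5.67 TPM) still lay above the highest vehicle library (4.86 TPM), at 1.42-fold in the mean. IL6 with RNO alone was 4.19, 6.32, 6.02 and 6.10 TPM, with 3 libraries above the vehicle range and the first inside it (1.26-fold, adjusted p = 0.605).

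IL11 started from a higher level than IL6, and its fold changes were smaller. Its vehicle values were 26.3, 52.7, 47.9 and 38.7 TPM. With 1 µM ONO they were 116.6, 95.02, 102.2 and 112 TPM, and with vilanterol 186.2, 179.0, 179.5 and 178.1 TPM. The vilanterol libraries were close together, whereas the vehicle libraries spread widely, with replicate 1 the lowest. Neither agonist group overlapped vehicle.

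The increase of IL11 was 2.57-fold with 1 µM ONO (1.38, SE 0.20, adjusted p = 7.5e-06) and 4.36-fold with vilanterol (2.14, SE 0.20, adjusted p = 2.93e-10). With 1 nM ONO its values of 56.3, 71.9, 68.2 and 52.4 TPM overlapped vehicle by the lowest library, and the mean was 1.502-fold higher. That difference did not pass without the block (adjusted p = 0.182) and passed with it (blocked adjusted p = 0.0197, or 0.0277 also without vehicle replicate 3). With 0.1 nM ONO and with RNO alone IL11 was 35.5 ± 10.4 and 39.3 ± 13.8 TPM (adjusted p = 0.841 and 0.868).

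**Figure D1:**
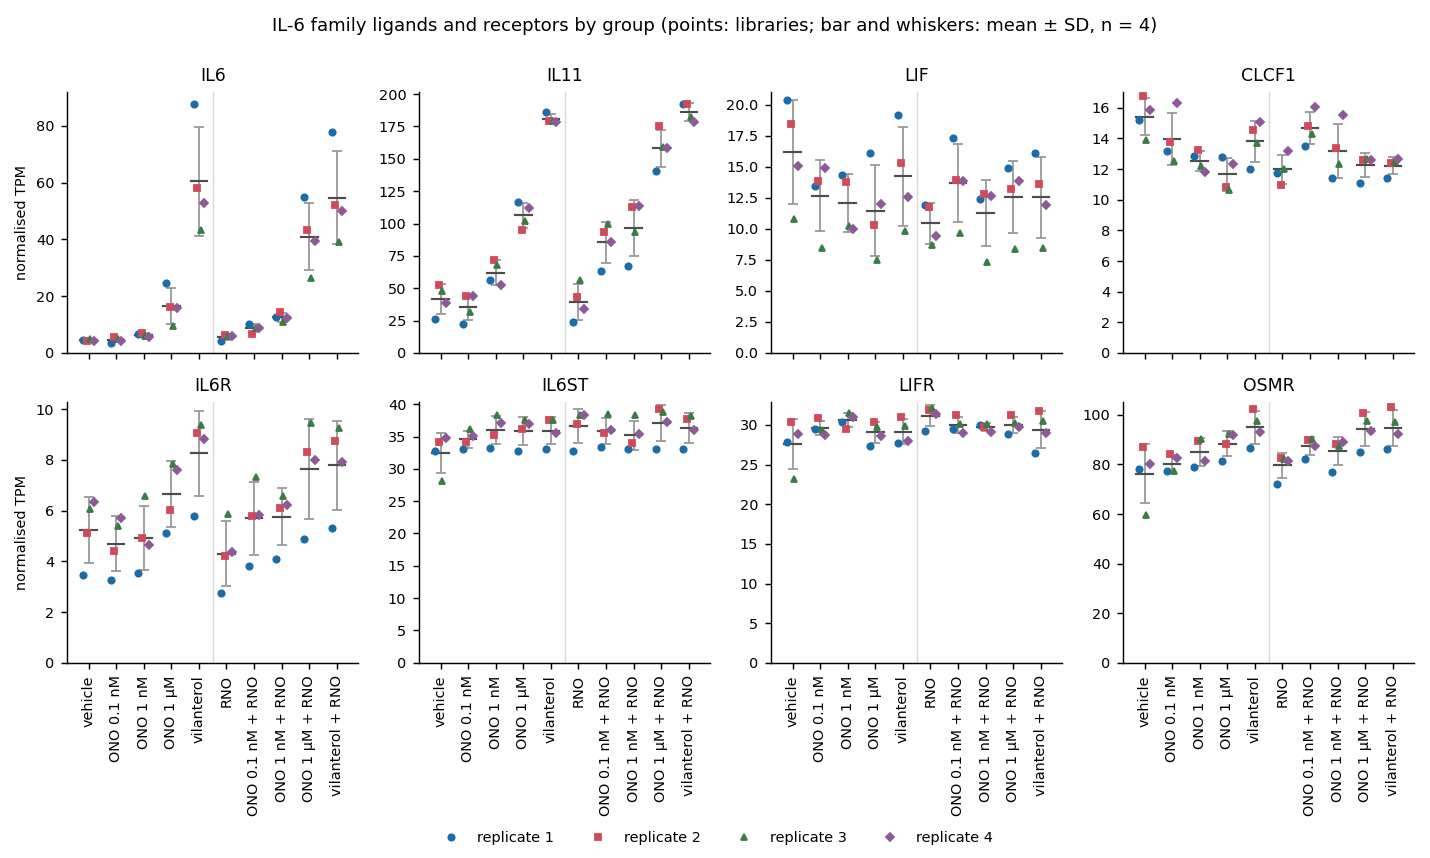
Normalised TPM of the 8 members (vertical axes, from 0) in the 10 groups (horizontal axis), where points are single libraries marked by replicate number and bars with whiskers are the mean ± SD of 4. IL6 climbs from 4.48 TPM in vehicle to 60.5 TPM with vilanterol and IL11 from 41.4 to 180.7 TPM. Group means span 10.4 to 16.2 TPM for LIF, 11.65 to 15.4 for CLCF1, 4.31 to 8.27 for IL6R and 76.3 to 94.9 for OSMR. Those of IL6ST span 32.4 to 37.1 TPM and those of LIFR 27.6 to 31.2 TPM.

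The steps between treatments were tested directly. From 1 nM to 1 µM ONO, IL6 rose 2.59-fold (adjusted p = 0.00043) and IL11 1.71-fold (adjusted p = 0.0321), which made 2 of 8 members where 2.11% of all genes were called. The IL11 call was lost in 5 of 8 fits that left out 1 library (ONO 1 nM replicate 1 or 4, or ONO 1 µM replicate 1, 3 or 4; adjusted p = 0.0688 to 0.137). With the block, which called 5.51% of all genes, IL6R also passed in this step (1.35-fold, adjusted p = 0.732, blocked adjusted p = 0.00024). From 0.1 to 1 nM ONO none of the 8 members passed in limma, against 0.318% of all genes, although 1 member had an unadjusted p under 0.05. That member was IL11, 1.75-fold higher at 1 nM (adjusted p = 0.0722, blocked adjusted p = 0.00412, with 1.21% of all genes called with the block).

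Vilanterol against 1 µM ONO called the same pair of ligand genes, 2 of 8 members against 2.14% of all genes. IL6 was 3.66-fold higher with vilanterol (1.83, SE 0.21, adjusted p = 1.53e-06), with ratios of 3.57, 3.57, 4.60 and 3.33 within replicate numbers. IL11 was 1.70-fold higher (adjusted p = 0.0379), a call lost in each of the 8 fits that left out 1 of these libraries (adjusted p = 0.0524 to 0.137). With the block 4 members passed (6.8% of all genes), the other two being CLCF1 (1.19-fold, blocked adjusted p = 0.0277) and IL6R (1.24-fold, blocked adjusted p = 0.00856). These are single concentrations of each agonist, so no order of potency follows.

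Promoter sequences of the 2 ligand genes that rose against vehicle and the 2 receptor genes called most often are shown beside the values. They come from RefSeq on GRCh38.p14, run 5′ to 3′ on the gene's strand and span 250 bases before to 50 after the annotated start. Capitals mark the core of the cAMP response element, TGACG or its reverse complement, and the AP-1 motif TGANTCA. The IL6 window is chr7:22726950-22727249 on the plus strand, IL11 chr19:55370414-55370713 on the minus strand, IL6R chr1:154405093-154405392 on the plus strand and OSMR chr5:38845762-38846061 on the plus strand.
IL6: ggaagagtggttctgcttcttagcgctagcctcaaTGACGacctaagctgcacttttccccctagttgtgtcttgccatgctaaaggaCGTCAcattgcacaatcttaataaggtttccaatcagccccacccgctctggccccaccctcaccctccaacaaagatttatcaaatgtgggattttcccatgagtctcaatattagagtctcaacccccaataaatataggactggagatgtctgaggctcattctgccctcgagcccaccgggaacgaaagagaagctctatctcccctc
IL11: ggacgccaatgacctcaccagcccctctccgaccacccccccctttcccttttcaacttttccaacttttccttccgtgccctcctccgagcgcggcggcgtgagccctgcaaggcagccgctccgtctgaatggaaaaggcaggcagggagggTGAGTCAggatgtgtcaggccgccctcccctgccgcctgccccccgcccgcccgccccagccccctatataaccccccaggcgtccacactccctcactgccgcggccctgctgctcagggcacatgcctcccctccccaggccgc
IL6R: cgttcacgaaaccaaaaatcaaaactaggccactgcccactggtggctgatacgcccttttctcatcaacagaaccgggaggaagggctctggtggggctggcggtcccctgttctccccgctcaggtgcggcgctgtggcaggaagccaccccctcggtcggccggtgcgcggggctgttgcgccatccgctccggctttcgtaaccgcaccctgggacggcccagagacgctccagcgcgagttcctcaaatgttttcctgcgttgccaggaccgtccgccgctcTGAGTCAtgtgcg
OSMR: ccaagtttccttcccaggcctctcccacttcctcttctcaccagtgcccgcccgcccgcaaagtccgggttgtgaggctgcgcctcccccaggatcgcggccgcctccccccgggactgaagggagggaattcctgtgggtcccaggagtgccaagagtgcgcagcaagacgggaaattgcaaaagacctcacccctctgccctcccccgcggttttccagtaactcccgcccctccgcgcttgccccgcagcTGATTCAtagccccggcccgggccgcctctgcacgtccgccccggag

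Both strands were searched, in the 8 windows of the 6 members with a RefSeq entry and in 35116 promoter windows of the same length. IL6 held 2 cAMP response element cores, whose first bases lay 215 and 162 bases before the start, a motif present in 24.6% of all windows. It also held the NF-kB motif (GGG and CC with any 5 bases between, in 58.7% of windows), among others as GGGATTTTCC at 73 bases before the start, and the C/EBP motif TTNNGNAA (36.8%) at 155 bases before it. The full element TGACGTCA, which contains the core on both strands, was found in 1.85% of windows and in none of the 8. AP-1 was present in 7.71% of windows, and among the members in IL11 at 96 bases before the start, in IL6R at position 38 and in OSMR at position 4 after it. Among the other members NF-kB matches were found in IL6R, IL6ST, OSMR and 2 of the 3 LIFR windows, and C/EBP matches in IL6R, OSMR and 2 of the 3 LIFR windows. IL11 held neither. The STAT motif TTCNNNGAA, in 7.66% of windows, was found in 2 of the 3 LIFR windows. LIF and CLCF1 had no entry. Sequence further than 250 bases before the start was not searched, so a motif missing from a window may lie outside it. These matches are letters in a window and do not show that a factor binds there.

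RNO was next combined with each agonist, to ask whether blocking PDE4 changed the response of the family. With 0.1 nM ONO alone IL11 was 22.6, 44.03, 31.5 and 43.7 TPM, and with RNO added it was 63.0, 93.5, 99.5 and 85.8 TPM. The groups did not overlap, and IL11 was 2.41-fold higher (1.27, SE 0.20, adjusted p = 0.000223). It was the one member called of 8 in this comparison, against 0.723% of all genes. IL6 went from 3.64, 5.52, 4.95 and 4.38 TPM to 10.2, 6.80, 8.84 and 8.92 TPM without overlap, 1.88-fold (adjusted p = 0.0913, blocked adjusted p = 0.0136, with 2.58% of all genes called with the block).

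The combination of 0.1 nM ONO and RNO gave more IL11 than the separate log2 changes add up to. The interaction (the log2 change with both agents minus the sum of the changes with each) was 1.37 for IL11 (SE 0.29, adjusted p = 0.038, blocked adjusted p = 0.000959). IL11 was the single member of 8 called, against 0.135% of all genes. The call was lost in 10 of 16 fits that left out 1 library (adjusted p = 0.0581 to 0.128). Those libraries were vehicle replicates 2, 3 and 4, RNO replicates 1 and 4, ONO 0.1 nM replicates 1 and 3, and the combination's replicates 2, 3 and 4. With the block, which called 2.57% of all genes, the interaction also passed for LIF (0.67, adjusted p = 0.716, blocked adjusted p = 0.00538), CLCF1 (0.41, adjusted p = 0.179, blocked adjusted p = 0.0103) and IL6R (0.47, adjusted p = 0.782, blocked adjusted p = 0.00511). In these 3 genes RNO alone and 0.1 nM ONO alone each lay below vehicle in the mean.

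At 1 nM ONO the addition of RNO moved IL6 from 6.85, 7.16, 5.81 and 5.67 TPM to 12.7, 14.6, 10.8 and 12.2 TPM. The groups did not overlap and the ratio within replicate numbers was 1.86, 2.03, 1.85 and 2.16, yet limma called none of the 8 members, against 0.238% of all genes. At an unadjusted p under 0.05 there were 2 members, IL6 (1.97-fold, adjusted p = 0.0819, blocked adjusted p = 0.0086) and IL11 (1.56-fold, adjusted p = 0.479, blocked adjusted p = 0.0622, with 1.2% of all genes called with the block).

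At 1 µM ONO the values of IL6 with RNO were 55.05, 43.2, 26.3 and 39.4 TPM, above the highest library without it (24.6 TPM). RNO raised IL6 2.48-fold there (1.29, SE 0.21, adjusted p = 0.00166), with ratios of 2.24, 2.67, 2.79 and 2.48 within replicate numbers. IL6 was the one member of 8 called, against 0.604% of all genes. IL11 was 140.5, 175.4, 159.1 and 158.3 TPM with RNO, also without overlap (1.49-fold, adjusted p = 0.328, blocked adjusted p = 0.0492, with 3.69% of all genes called with the block).

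With vilanterol the addition of RNO changed neither gene detectably. IL6 was 77.7, 52.2, 38.9 and 50.1 TPM with RNO and IL11 192.4, 192.0, 182.1 and 178.4 TPM. Against vilanterol alone the log2 change was -0.14 for IL6 (95% interval -0.57 to 0.29) and 0.04 for IL11 (-0.37 to 0.46). In limma none of the 8 members passed, of all genes 0% were called, and the number of members with an unadjusted p under 0.05 was also 0. Vilanterol with RNO against 1 µM ONO with RNO gave 0 of 8 members as well, against 0% of all genes and with 0 members at an unadjusted p under 0.05. The interval there ran from -0.02 to 0.84 for IL6 (1.34-fold) and from -0.18 to 0.65 for IL11 (1.18-fold).

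**Figure D2:**
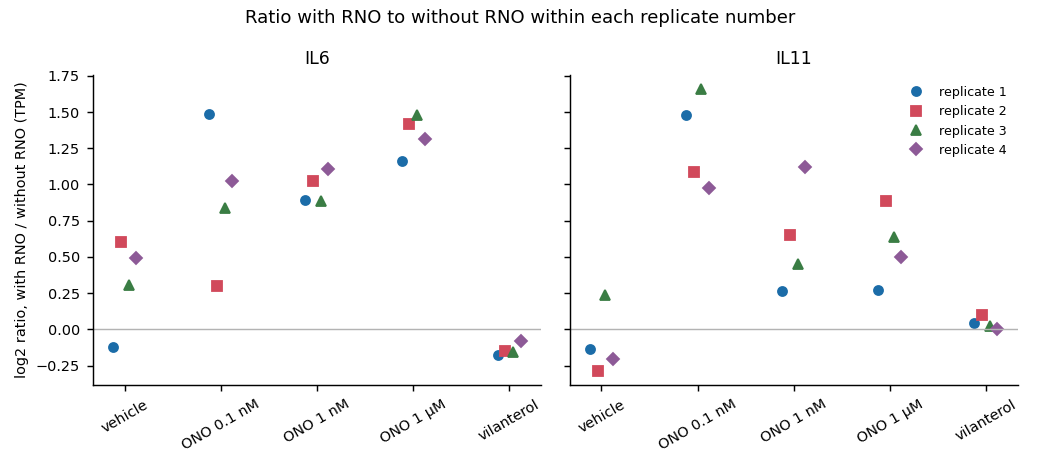
Log2 ratio of TPM with RNO to TPM without RNO (vertical axis) for IL6 and IL11 within each replicate number (4 points per position), for vehicle and the 4 agonist treatments (horizontal axis). IL6 ratios with 1 µM ONO lie between 2.24 and 2.79 before the log2 step and with vilanterol between 0.885 and 0.948, and IL11 ratios with 0.1 nM ONO between 1.96 and 3.16.

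The interactions at the other agonist treatments called no member in limma without the block. That of 1 nM ONO called 0 of 8 members and 0% of all genes, with 4 members at an unadjusted p under 0.05 (IL11, CLCF1, IL6ST and LIFR). That of 1 µM ONO called 0 of 8 members against 0.0635% of all genes, with 4 members at an unadjusted p under 0.05. One of them was IL6, at 1.02 (SE 0.30, 95% interval 0.40 to 1.63, adjusted p = 0.181), beside IL11, LIF and CLCF1. For vilanterol 0 of 8 members passed against 0.00794% of all genes, and 1 member, LIFR, had an unadjusted p under 0.05. The interaction of IL6 there was -0.41 (95% interval -1.02 to 0.20). With the block 2, 4 and 0 of 8 members passed in the interactions of 1 nM ONO, 1 µM ONO and vilanterol. IL6 was among those that passed at 1 µM ONO. The block called 1.69%, 3.76% and 0.246% of all genes there. Replicate numbers were not taken as pairs in these interactions.

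Against vehicle, the combinations of 0.1 nM, 1 nM and 1 µM ONO with RNO raised IL6 1.94-fold, 2.81-fold and 9.15-fold (adjusted p = 0.0498, 7.33e-05 and 6.5e-13). The first call was lost in 7 of 8 fits that left out 1 library (adjusted p = 0.0701 to 0.151) and remained when replicate 2 of the combination was left out. IL11 rose 2.06-fold, 2.34-fold and 3.82-fold (adjusted p = 0.0024, 0.000106 and 3.32e-09). Vilanterol with RNO raised IL6 12.2-fold and IL11 4.498-fold (adjusted p = 1.65e-14 and 1.84e-10). With RNO present, 0.1 nM ONO thus gave an IL11 level of 85.5 ± 16.0 TPM, with a range of 63.0 to 99.5 TPM. Only its highest library reached the range of 1 µM ONO alone (95.02 to 116.6 TPM, mean 106.4 TPM). These groups were not compared by a test.

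The same combinations were set against RNO alone, which gives the effect of the agonist when PDE4 is inhibited. IL11 rose 2.176-fold with 0.1 nM ONO (adjusted p = 0.00166), the one member of 8 against 0.627% of all genes. With 1 nM ONO, 2 of 8 members passed against 1.68% of all genes, IL6 at 2.22-fold and IL11 at 2.47-fold (adjusted p = 0.00319 and 5.82e-05). With 1 µM ONO, 4 of 8 passed against 12% of all genes, and IL6 and IL11 were 7.25-fold and 4.03-fold higher. With vilanterol 4 of 8 passed against 15.5% of all genes, with IL6 9.67-fold and IL11 4.74-fold higher. The other two members at these strongest treatments were IL6R and OSMR. With the block, which called 2.62% and 4.8% of all genes, 0.1 nM ONO also passed for LIF (1.31-fold, blocked adjusted p = 0.0484), CLCF1 (1.23-fold, blocked adjusted p = 0.0132) and IL6R (1.32-fold, blocked adjusted p = 0.00219), and 1 nM ONO for IL6R (1.34-fold, blocked adjusted p = 0.000481).

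Ordered by mean, IL6 ran from vehicle through 0.1 nM ONO, RNO, 1 nM ONO, 0.1 nM ONO with RNO, 1 nM ONO with RNO, 1 µM ONO, 1 µM ONO with RNO and vilanterol with RNO to vilanterol. Neighbours in that order were separated without overlap between 0.1 and 1 nM ONO with RNO, and between 1 µM ONO without and with RNO. IL11 followed a like order, with separation between 1 µM ONO and 1 µM ONO with RNO and between the latter and vilanterol. The TPM ratio of IL11 to IL6 was 9.30 ± 2.83 in vehicle (range 5.77 to 12.6), 7.13 ± 2.65 with 1 µM ONO (4.74 to 10.8), 4.17 ± 1.44 with 1 µM ONO and RNO (2.55 to 6.05) and 3.18 ± 0.835 with vilanterol (2.12 to 4.14). The vehicle and vilanterol ranges did not overlap, and IL11 stayed the more abundant transcript in all 40 libraries.

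LIF and CLCF1 did not share the increase. LIF, which supports stem cell renewal and acts on many tissues through LIFR and gp130, was 20.4, 18.5, 10.8 and 15.1 TPM in vehicle and 11.9, 11.8, 8.68 and 9.39 TPM with RNO. It was lower with RNO in each of the 4 replicate numbers (0.645-fold in the mean), but the groups overlapped because replicate 3 was low in both. Without the block the difference did not pass (log2 change -0.56, SE 0.23, adjusted p = 0.315), and with it it did (blocked adjusted p = 0.000817, or 0.00207 also without vehicle replicate 3). LIF was likewise called lower only with the block in 1 nM ONO (0.747-fold, adjusted p = 0.466, blocked adjusted p = 0.0151) and 1 µM ONO (0.709-fold, adjusted p = 0.258, blocked adjusted p = 0.000664). The same held for 1 µM ONO with RNO (0.778-fold, adjusted p = 0.352, blocked adjusted p = 0.0108) and vilanterol with RNO (0.775-fold, adjusted p = 0.327, blocked adjusted p = 0.00786). With vilanterol alone LIF was 14.2 ± 3.99 TPM against 16.2 ± 4.21 TPM in vehicle (adjusted p = 0.656, blocked adjusted p = 0.179).

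CLCF1, a B cell-stimulating and neurotrophic ligand, was highest in vehicle at 15.2, 16.7, 13.9 and 15.8 TPM. With 1 µM ONO it was 12.8, 10.9, 10.7 and 12.3 TPM, all below the vehicle libraries. It fell to 0.756-fold (-0.38, SE 0.08, adjusted p = 0.00146). CLCF1 also fell with 1 µM ONO and RNO (0.794-fold, adjusted p = 0.00569) and with vilanterol and RNO (0.794-fold, adjusted p = 0.00489). RNO alone gave 11.76, 10.96, 11.98 and 13.2 TPM, below every vehicle library, and just missed the threshold without the block (0.777-fold, adjusted p = 0.051, blocked adjusted p = 0.00219). With 1 nM ONO it was 0.813-fold (adjusted p = 0.0908, blocked adjusted p = 0.00651). Vilanterol alone left CLCF1 at 13.8 ± 1.33 TPM (adjusted p = 0.207), and vilanterol and 1 µM ONO thus differed with the block only, as given above.

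Among the receptor genes the differences from vehicle were at most 1.58-fold. IL6R, the private chain for IL-6, had the lowest mean of the 8 members over all 40 libraries, although IL6 was lower in vehicle and with 0.1 nM ONO. Its vehicle values were 3.45, 5.10, 6.06 and 6.33 TPM, and its vilanterol values 5.78, 9.07, 9.39 and 8.84 TPM. The groups overlapped because replicate 1 was low in both, but within replicate numbers the ratio was 1.67, 1.78, 1.55 and 1.40. The 1.58-fold difference missed the threshold without the block (0.58, SE 0.21, adjusted p = 0.051) and passed with it (blocked adjusted p = 3.45e-08, or 5.2e-07 also without vehicle replicate 3). IL6R likewise passed with the block in 1 µM ONO (1.27-fold, adjusted p = 0.468, blocked adjusted p = 0.00143), 1 µM ONO with RNO (1.46-fold, adjusted p = 0.129, blocked adjusted p = 2.19e-06) and vilanterol with RNO (1.49-fold, adjusted p = 0.0952, blocked adjusted p = 5.68e-07).

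Against RNO alone IL6R rose without the block, since RNO alone had the lowest mean, 4.31 ± 1.27 TPM. It was 1.78-fold higher with 1 µM ONO and RNO (adjusted p = 0.0207) and 1.81-fold higher with vilanterol and RNO (adjusted p = 0.0115). The first call was lost without RNO replicate 1 or without replicate 2, 3 or 4 of the combination (adjusted p = 0.0541 to 0.116), and the second without RNO replicate 1 (adjusted p = 0.0734). RNO alone against vehicle was 0.823-fold (adjusted p = 0.646, blocked adjusted p = 0.0378, and 0.0599 also without vehicle replicate 3).

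OSMR, the oncostatin M receptor chain, was the most abundant receptor transcript. It was 78.2, 87.2, 59.5 and 80.1 TPM in vehicle and 86.7, 102.3, 97.6 and 93.1 TPM with vilanterol. The groups overlapped by the replicate 1 library of vilanterol, and the widest gap was in replicate 3, where the ratio was 1.64 against 1.11 to 1.17 in the others. OSMR rose 1.25-fold with vilanterol (0.32, SE 0.08, adjusted p = 0.0026), 1.24-fold with 1 µM ONO and RNO (adjusted p = 0.00407) and 1.24-fold with vilanterol and RNO (adjusted p = 0.00268). Without vehicle replicate 3 these 3 calls remained (adjusted p = 0.0301, 0.0465 and 0.031). With 1 µM ONO alone it was 1.16-fold (adjusted p = 0.0812, blocked adjusted p = 0.00967, and 0.0449 also without vehicle replicate 3). With 0.1 nM ONO and RNO it was 1.15-fold (adjusted p = 0.275, blocked adjusted p = 0.0409, and 0.238 also without vehicle replicate 3). Against RNO alone OSMR was 1.18-fold higher with 1 µM ONO and RNO and 1.19-fold higher with vilanterol and RNO (adjusted p = 0.0373 and 0.0246). The first of these was lost in 5 of 8 fits without 1 library (RNO replicate 1 or 4, or replicate 2, 3 or 4 of the combination, adjusted p = 0.0581 to 0.157). The second was lost without RNO replicate 1 or without replicate 2 or 3 of the combination (adjusted p = 0.0649 to 0.11).

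IL6ST, the gene of gp130, was 32.7, 34.1, 28.1 and 34.8 TPM in vehicle and its group means over the other 9 groups lay between 34.6 and 37.1 TPM. It was called in 1 comparison, 1 µM ONO with RNO against vehicle (1.14-fold, 0.19, SE 0.06, adjusted p = 0.0413). That call was lost without vehicle replicate 3 (adjusted p = 0.251), without vehicle replicate 1, or without replicate 2, 3 or 4 of the combination (adjusted p = 0.0507 to 0.251 over these 5 fits). With the block IL6ST also passed against vehicle in RNO, 1 nM ONO, 1 µM ONO, vilanterol and vilanterol with RNO (1.11-fold to 1.13-fold, blocked adjusted p = 0.0309, 0.0438, 0.032, 0.0172 and 0.00933). Leaving out vehicle replicate 3 as well ended all 5 calls (0.163, 0.308, 0.254, 0.174 and 0.081).

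LIFR was 27.9, 30.4, 23.2 and 28.9 TPM in vehicle, with group means up to 31.2 TPM (RNO), and passed without the block in none of the 25 comparisons. With the block it passed against vehicle in RNO (1.13-fold, blocked adjusted p = 0.0297), 1 nM ONO (1.11-fold, 0.0441) and 1 µM ONO with RNO (1.09-fold, 0.0491). Leaving out that vehicle library as well ended all 3 calls (0.179, 0.328 and 0.479). LIFR and OSMR have antisense partners in the table, LIFR-AS1 at 0.837 to 1.68 TPM and OSMR-AS1 at 0.165 to 1.23 TPM. Library strand was marked by the kit, but whether the quantification used it is not given in the sources used here.

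**Figure D3:**
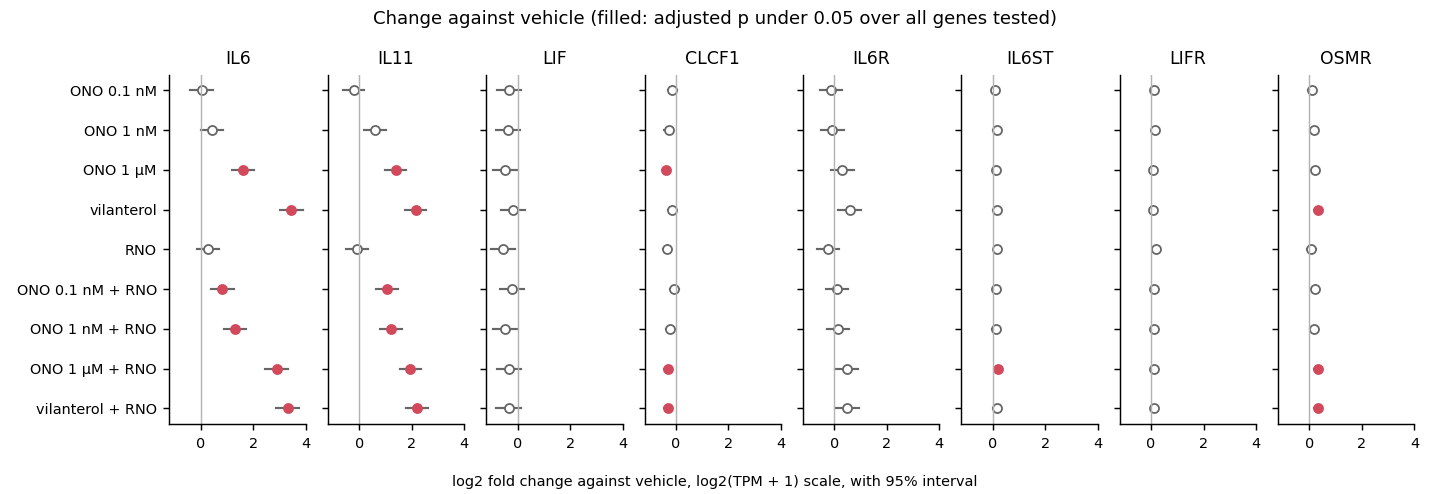
Log2 fold change against vehicle (horizontal axes, log2(TPM + 1) scale) of the 8 members (panels) in the 9 treatments (vertical axis), with bars for the 95% interval from limma and filled points for adjusted p under 0.05. IL6 with vilanterol reaches 3.44 and IL11 2.14, and CLCF1 lies at -0.38 with 1 µM ONO. No LIFR point is filled, although its interval lies above 0 for instance with RNO (0.06 to 0.29) and 1 nM ONO (0.04 to 0.26).

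Counted over the family, 3 of 8 members were called with 1 µM ONO (2 higher, 1 lower) and 3 of 8 with vilanterol (3 higher), where 7.21% and 17.7% of all genes were called. With RNO, 2 of 8 were called with 0.1 nM ONO (1.12% of all genes), 2 of 8 with 1 nM ONO (3.45%), 5 of 8 with 1 µM ONO (4 higher, 1 lower, 15.8%) and 4 of 8 with vilanterol (3 higher, 1 lower, 18.4%). In limma 0 of 8 were called with RNO alone (0.238% of all genes), with 0.1 nM ONO (0%) and with 1 nM ONO (1.01%), and the members at an unadjusted p under 0.05 numbered 4, 0 and 5. With the block the counts were 5 of 8 for RNO (5.11% of all genes), 0 for 0.1 nM ONO (0.0794%), 5 for 1 nM ONO (8.47%), 7 for 1 µM ONO (16.6%) and 5 for vilanterol (31.2%). They were 3, 8 and 7 for RNO with 0.1 nM ONO, 1 µM ONO and vilanterol (5.12%, 29.7% and 32.0%). For RNO with 1 nM ONO, where the numbers were not taken as pairs, the block gave 4 (10%). With the block and without vehicle replicate 3 the RNO count was 2 of 8, that of 1 nM ONO 3 and that of 1 µM ONO 6, where 252, 612 and 1803 of the 12591 genes were called. The median log2 change of the 8 members was 0.18 with 1 µM ONO and 0.23 with vilanterol, beside -0.003 and -0.009 over all genes.

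Members differed in how their variation divided between treatment and replicate number. Of the sum of squares on the log2(TPM + 1) scale, groups held 95.6% for IL6 and 91.6% for IL11, with 1.24% and 3.32% between replicate numbers. For LIF groups held 21.7% and replicate numbers 65.5%, and replicate 3 was the lowest library in 9 of 10 groups. For IL6R the shares were 50.1% and 45.4%, and replicate 1 was the lowest in 10 of 10 groups. Replicate 1 was also the lowest in 9 of 10 groups for IL6ST and for OSMR. For IL6 replicate 1 was the highest and replicate 3 the lowest library with 1 µM ONO and with vilanterol, each with and without RNO.

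The members' 3′ untranslated regions were compared as a sequence feature, since AU-rich elements there are known to shorten the life of cytokine mRNAs. In the longest annotated region of each gene (GENCODE 29, 18768 genes with at least 50 bases) IL6 held 6 ATTTA motifs in 429 bases, or 14.0 per kb. The median over all genes was 1.52 per kb and the upper quartile 3.10. IL11 held 5.56 per kb, LIFR 4.37, CLCF1 4.13, OSMR 3.64, IL6ST 3.40, LIF 2.19 and IL6R 1.47. The longer TTATTTATT motif, in 8.31% of genes, occurred 6 times in IL11, 2 times each in CLCF1, LIF and OSMR, 1 time in LIFR and in none of IL6, IL6R and IL6ST. The ATTTA density was highest in IL6 and IL11, and the longer motif had a different order. A link of either motif to the changes was not tested, and nothing about RNA stability was measured.

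Genes around the family were taken from lists of its other ligands, receptors and signalling parts. Of 7 other ligands and soluble partners 3 were in the table and 2 tested, CTF1 at group means of 5.18 to 5.98 TPM and CNTF at 2.26 to 3.10 TPM, and none changed in limma in any of the 25 comparisons. Between 0% and 18.4% of all genes were called in a comparison without the block. A count of 0 among so few genes says little, here and for the next lists. Of 6 other receptor chains and sheddases 4 were tested and none changed without the block, with IL11RA, the private chain for IL-11, at 6.38 to 7.31 TPM. With the block 1 of the 4, the sheddase gene ADAM10, rose with 0.1 nM ONO and RNO (1.06-fold, adjusted p = 0.368, blocked adjusted p = 0.0492) and with 1 µM ONO and RNO (1.06-fold, adjusted p = 0.109, blocked adjusted p = 0.0118), where the block called 5.12% and 29.7% of all genes. Of 11 JAK, STAT and SHP2 genes 10 were tested and none changed without the block. With the block 1, 3 and 4 of the 10 rose against vehicle with RNO, vilanterol and 1 µM ONO with RNO. The block called 5.11%, 31.2% and 29.7% of all genes there. Likewise 1, 1 and 2 of the 10 rose with 1 nM ONO, 0.1 nM ONO with RNO and vilanterol with RNO. In those comparisons the block called 8.47%, 5.12% and 32% of all genes.

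Of 9 inhibitors of JAK and STAT signalling 6 were tested, and SOCS3 was the main one to change. SOCS3 was 20.8 ± 1.41 TPM in vehicle and 16.3 ± 1.60 TPM with RNO (n = 4, adjusted p = 0.222, blocked adjusted p = 0.043). It rose to 29.6 ± 2.60 TPM with 0.1 nM ONO and RNO (1.42-fold, adjusted p = 0.0123), where 0.1 nM ONO alone gave 19.0 ± 2.73 TPM. SOCS3 was higher in the combination than in 0.1 nM ONO alone (1.55-fold, adjusted p = 0.00106). With vilanterol it reached 55.4 ± 2.86 TPM (2.66-fold, adjusted p = 3.85e-12). The phosphatase gene PTPN1 rose 1.12-fold with vilanterol (adjusted p = 0.00905), and PIAS3 fell to 0.904-fold with 1 µM ONO and RNO (adjusted p = 0.0301). PIAS1 was called lower with vilanterol and RNO than with RNO alone. With vilanterol 2 of the 6 thus rose, where 17.7% of all genes were called. With the block 2 rose and 1 fell there, where 31.2% of all genes were called.

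Of 19 STAT3 target and acute phase genes 13 were tested, and they did not move one way. With vilanterol 4 rose and 4 fell, where 17.7% of all genes were called, and the list's median log2 change was 0.13. BCL3, a nuclear co-regulator of NF-kB, rose 1.76-fold (adjusted p = 0.000362), and CEBPD, a transcription factor of acute phase genes, rose 2.63-fold from 38.9 ± 12.6 to 102.2 ± 25.9 TPM (adjusted p = 0.00176). JUNB, an AP-1 subunit, rose 1.85-fold (adjusted p = 0.000806) and the growth regulator MYC 1.45-fold (adjusted p = 2.45e-05). The survival genes MCL1 and BCL2L1 fell to 0.745-fold and 0.816-fold (adjusted p = 8.36e-07 and 1.88e-06), the cyclin gene CCND1 to 0.668-fold (adjusted p = 0.00936) and the interferon-responsive factor IRF1 to 0.729-fold (adjusted p = 0.00363). With 1 µM ONO, BCL3 rose and these same 4 genes fell, where 7.21% of all genes were called. With the block 2 rose and 5 fell there, where 16.6% of all genes were called. CEBPD passed with the block only (1.82-fold, adjusted p = 0.108, blocked adjusted p = 1.81e-08). With RNO alone 0 of the 13 passed in limma (0.238% of all genes) and with the block 5 were lower (5.11% of all genes called in either direction).

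Of 13 transcription factors known to act on the IL6 promoter all were tested. With vilanterol 3 rose and 2 fell, where 17.7% of all genes were called. CREM, a cAMP-responsive factor, rose 1.29-fold (adjusted p = 0.00022), FOSL2 1.79-fold (adjusted p = 4.58e-08) and the CREB coactivator CRTC3 1.15-fold (adjusted p = 0.0291). Both FOSL1 and JUN, subunits of AP-1, decreased, FOSL1 to 0.280-fold (from 140.7 ± 15.9 to 39.4 ± 6.76 TPM, adjusted p = 9.06e-14) and JUN to 0.435-fold (adjusted p = 3.77e-15). FOSL1 and JUN also fell with 0.1 nM ONO and RNO (0.645-fold and 0.795-fold, adjusted p = 0.00298 and 0.00852). Of 9 genes of cytokine mRNA decay and stability, 2 rose with vilanterol, a count near the 17.7% of all genes called. They were ZC3H12A, an endonuclease that degrades IL6 mRNA, 1.49-fold from 2.51 ± 0.585 to 3.73 ± 0.485 TPM (adjusted p = 0.0062), and RC3H1 1.14-fold (adjusted p = 0.0321). ZFP36L1 fell to 0.808-fold with 1 µM ONO (adjusted p = 0.00253).

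**Figure D4:**
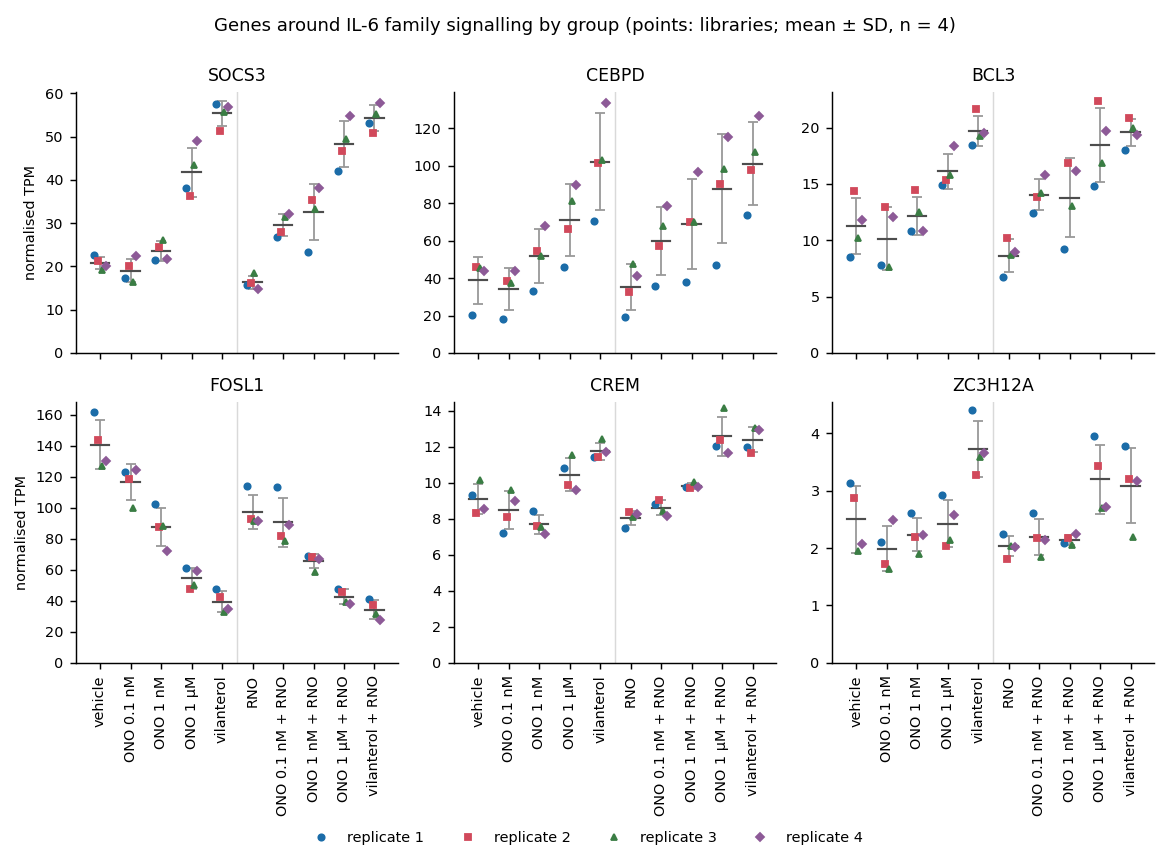
Normalised TPM (vertical axes, from 0) of 6 genes from the pathway lists in the 10 groups (horizontal axis), with points for libraries by replicate number and bars with whiskers for the mean ± SD of 4. SOCS3 rises from 20.8 to 55.4 TPM and CEBPD from 38.9 to 102.2 TPM between vehicle and vilanterol, while FOSL1 falls from 140.7 to 39.4 TPM.

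Likeness of pattern was measured as Pearson's r over the 10 group means of log2(TPM + 1) among all tested genes, as a description, since many genes share the treatments. The genes most like IL6 were FOXP1, SPAG1 and OTUD1 (each r = 0.996), and those most like IL11 were CEBPD (0.997), DEPDC7 (0.992) and CES3 (0.992). For IL6R they were MNT (0.992), LITAF (0.992) and ATG101 (0.99), and for OSMR they were HEG1 (0.991), HIVEP1 (0.989) and RUNX1 (0.988). NAB1 was most like LIF (0.955), MFSD2A most like CLCF1 (0.958), PTPN11 most like IL6ST (0.977) and PCNX1 most like LIFR (0.972). SDC4 was among the 3 genes most like both LIF (0.948) and CLCF1 (0.928). The group means of 3 such genes spanned 34.4 to 102.2 TPM (CEBPD), 16.3 to 44.3 TPM (OTUD1) and 6.27 to 8.92 TPM (FOXP1).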

How the data were processed

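Directional poly(A) libraries were sequenced on an Illumina NextSeq with 2 kits, per the labels' protocols (kit per library not given in the sources used here). bcl2fastq 2.18.0.12, kallisto, sleuth and the builds GRCh37 and hg19 appear in the submitters' processing notes. The authors deposited a normalised signal, TPM adjusted between samples (column totals are unequal). Groups and replicate numbers came from the labels. The design had assumed plain TPM, and its log-scale test was kept.

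Values were taken as log2(value + 1). Genes with a mean of at least 1 were fitted in limma 3.58.1 (R 4.3.3) with 1 mean per group over 40 libraries (30 residual degrees of freedom) and an intensity trend, with calls at a Benjamini-Hochberg adjusted p under 0.05 in each of 25 comparisons. The script was tested on simulated data. Tables and figures used Python 3.11.15, pandas 2.3.3, numpy 2.4.6 and matplotlib 3.10.9. The members and gene lists were chosen with earlier results of these data known. Named genes are the members, list genes called in the comparison described (others given as values) and the 3 genes most like each member.

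Replicate numbers are shared across groups. Deviations from group means correlated at a median r of 0.259 in 180 same-number pairs (174 over 0.1) and -0.0846 in 540 other pairs. In 20 of 25 comparisons all same-number pairs exceeded 0.1, and those numbers were taken as pairs. Alternatives were other pseudocounts (0.5, 0.1), filters (none, a mean of 5), scalings, library weights, robust variances, only the groups compared, the block, and leaving out each library. No counting interval is given, since depth is unknown.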

Additional observations from a re-analysis of the deposited data

Results flagged for a closer look

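Among 80 groups of 4 libraries (8 members in 10 groups), 6 held a library whose gap to the nearest other took a share of the group's range above Dixon's 95% critical value for 4 samples. Chance flags about 1 group in 20. IL6 with RNO alone was 4.19 TPM in replicate 1 and 6.02 to 6.32 TPM in the others. LIF with 1 nM ONO and RNO was 7.34 TPM (7.335) in replicate 3 and 12.4 to 12.8 TPM in the others. CLCF1 with 1 µM ONO and RNO was 11.1 TPM (11.07) in replicate 1 and 12.6 to 12.7 TPM in the others. IL6R with vilanterol was 5.78 TPM (5.781) in replicate 1 and 8.84 to 9.39 TPM in the others. OSMR in replicate 1 was 72.1 TPM (72.12) with RNO, where the others lay between 81.4 and 82.7 TPM, and 77.0 TPM (76.97) with 1 nM ONO and RNO, where the others lay between 87.5 and 89.2 TPM. In 5 of the 6 the library apart had replicate number 1.

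The interaction of 0.1 nM ONO and RNO for IL11, 1.37 (1.3685) on the log2(TPM + 1) scale, differed from 0 in limma (adjusted p = 0.038): RNO left IL11 at 0.949-fold of vehicle and raised it 2.41-fold in the presence of 0.1 nM ONO.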

How the results depend on the processing

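Of 37 calls of members over the 25 comparisons, 37 remained with a pseudocount of 0.5 or 0.1, with a filter at a mean of 5 and with the replicate block. There were 36 without a filter, 35 with equal medians or library weights, 34 with equal totals or robust variances and 28 with only the groups compared, and 0 reversed in any of these settings. The replicate block also added 45 calls to the 37, library weights added 7, and each other setting named here added at most 3. With each library left out in turn 28 calls remained in all fits and 9 were lost in at least 1.

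The number of members called changed as follows. With the replicate block it was 5 (RNO), 5 (1 nM ONO), 7 (1 µM ONO), 5 (vilanterol), 4 (1 nM ONO with RNO), 8 (1 µM ONO with RNO) and 7 (vilanterol with RNO) against vehicle. With the block it was 2, 1 and 2 for RNO added to 0.1 nM, 1 nM and 1 µM ONO, 4 for 0.1 nM ONO with RNO against RNO, 1 for 1 against 0.1 nM ONO and 4 for vilanterol against 1 µM ONO. For the interactions of 0.1 nM, 1 nM and 1 µM ONO with RNO the block gave 4, 2 and 4. In 1 nM ONO with RNO against vehicle and in vilanterol with RNO against RNO at least 1 same-number correlation was under 0.1. The same held for the interactions of 1 nM ONO, 1 µM ONO and vilanterol (lowest over all of these 0.0204). By the rule above, the numbers were not taken as pairs in these comparisons. Of these, the block called LIF and CLCF1 in 1 nM ONO with RNO against vehicle (adjusted p = 0.000948 and 0.0278), CLCF1 and IL6R in the interaction of 1 nM ONO (0.0207 and 0.0166), and IL6, LIF, CLCF1 and IL6R in that of 1 µM ONO (0.0249, 0.00279, 0.00898 and 0.0131), where it called 10%, 1.69% and 3.76% of all genes. All 40 libraries correlated best with their own number. The block left the other counts within 1.5 times. The block without vehicle replicate 3 was a setting chosen after seeing the data. Against vehicle it gave 2 (RNO), 3 (1 nM ONO), 6 (1 µM ONO) and 4 (1 nM ONO with RNO) members. It gave 5, 2 and 4 for the 3 ONO interactions. Of the 12591 genes that setting called 252, 612, 1803 and 1310 against vehicle, and 442, 184 and 683 for these interactions.

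In brackets is the number of genes called among all genes tested in that fit. RNO against vehicle gave 1 call with a filter at a mean of 5 (43), equal medians (41) or library weights (27). For 1 nM ONO it was 1 with equal medians (141) or library weights (119). For 0.1 nM ONO with RNO against vehicle the count was 1 with no filter (126) or only the groups compared (37). There it was also 1 with equal medians (145), library weights (138) or robust variances (138). It was 3 for 1 µM ONO with RNO with only the groups compared (778). RNO added to 0.1 nM ONO gave 2 with a pseudocount of 0.1 (95) or only the groups compared (47). RNO added to 1 nM ONO gave 1 with only the groups compared (9) or library weights (80). 0.1 nM ONO with RNO against RNO gave 0 with only the groups compared (32). The interaction of 0.1 nM ONO gave 0 with only the groups compared (1), equal totals (5) or robust variances (16). That of 1 µM ONO gave 1 with library weights (35). Library weights gave 1 for 1 against 0.1 nM ONO (63), and robust variances 1 for vilanterol against 1 µM ONO (261). The cause of these changes was not tested.

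With 1 library left out the counts ranged from 1 to 2 (0.1 nM ONO with RNO against vehicle), 0 to 1 (1 against 0.1 nM ONO), 2 to 4 (1 µM ONO with RNO against RNO), 2 to 4 (vilanterol with RNO against RNO), 1 to 2 (1 µM against 1 nM ONO), 0 to 1 (interaction of 0.1 nM ONO) and 1 to 1 (vilanterol against 1 µM ONO).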
